A study of Mus musculus with 8 samples.

Results

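Peaks of the nuclear RNA-binding protein Qki-5 were set against peaks of RNA polymerase II (Pol II) in mouse cells labelled as differentiated oligodendrocytes. The lists of both antibodies held 43442 peaks on chromosomes 1 to 19, X and Y. Of these, 30175 were Qki-5 peaks and 13267 were Pol II peaks. A Qki-5 peak and a Pol II peak were paired when their centres lay at most 199 bp apart, which is less than the 200 bp width of every peak. By this rule 9795 Qki-5 peaks had Pol II and 20380 did not, and 9794 Pol II peaks had Qki-5 and 3473 did not. The series held 109649 peaks in 6 lists. The cells were derived from neural stem cells of an FvB/C57BL6 hybrid background, carried introduced HA-tagged PPARb, and were used at passage 7. Their Neurobasal medium was supplemented with IGF-1 at 100 ng/mL, T3 at 50 ng/mL, GlutaMAX-I at 2 mM and B-27. The Qki-5, Pol II, PPARb, HA and input libraries all came from such cells, so the introduced receptor was present in every one of them, the input included. A further pair of lists, for Qki-5 and PPARb, came from oligodendrocytes that O4 beads pulled out of C57BL6 mouse brain. Chromatin immunoprecipitation with sequencing (ChIP-seq), the assay used, gives the DNA that an antibody brings down with its protein.

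Qki-5 is the nuclear isoform of Quaking, a protein of the STAR family that binds RNA at a short ACUAA-like element and is known for its part in the splicing and stability of myelin transcripts in oligodendrocytes. Pol II transcribes protein-coding genes and many non-coding ones. In mammals it gathers at and just downstream of the start of many genes, where it pauses before it goes on to elongate. An RNA-binding protein can reach chromatin through the RNA that is being made, through other proteins or directly, and ChIP-seq does not tell these apart.

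Each antibody had 1 library, so replicate error could not be measured, no test was made, and every interval covers counting error only. The Qki-5 library held 18078176 tags, of which 3.66% lay in peaks, and the Pol II library held 24880851 tags, of which 1.39% lay in peaks. Peak height is the authors' normalized tag count per 10000000 tags. A Qki-5 peak of median height, 11.1, rested on 20 tags (95% exact Poisson interval 6.76 to 17.1 in height), and a Pol II peak of median height, 8.84, on 22 tags (5.54 to 13.4). One input served both lists. As a check of the cell type, 1 of 20 oligodendrocyte marker genes (5.0%), Cnp, had both peaks at its start, against 36.5% of all genes. Neither peak was found at 16 (80.0%), against 50.1% of all genes. Pol II, with or without Qki-5, was at the start of 2 of these 20 genes. It was at 8 of 14 precursor and stem cell markers and at 8342 of all 21887 genes. Sox10 and Olig2 had no Qki-5 and no Pol II peak within 1000 bp of their span. RNA was not measured, so the label could be checked only through these peaks, which do not bear it out.

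The promoters below show the 3 arrangements of the peaks around gene starts. They run 5′ to 3′ along the gene from 200 bases before the start to 30 bases from it on, are taken from RefSeq (GRCm38.p6, the build called mm10), and have the letters CCGGAAG and GGGCGG, on either strand, in capitals. The first 3 are the highest-ranked paired sites whose promoter window held both centres, 2 belong to the tallest Qki-5 peaks with no Pol II centre within 1000 bp, and 2 to the tallest Pol II peaks with no Qki-5 centre within 1000 bp. Capitals mark strings found by their letters and say nothing of what binds there.
Pkm, chr9:59656376-59656605, plus strand: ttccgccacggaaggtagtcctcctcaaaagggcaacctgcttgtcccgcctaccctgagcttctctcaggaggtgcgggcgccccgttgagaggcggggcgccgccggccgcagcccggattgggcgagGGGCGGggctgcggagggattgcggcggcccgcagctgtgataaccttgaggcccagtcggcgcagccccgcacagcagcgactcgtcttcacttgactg
Cox20, chr1:178318953-178319182, plus strand: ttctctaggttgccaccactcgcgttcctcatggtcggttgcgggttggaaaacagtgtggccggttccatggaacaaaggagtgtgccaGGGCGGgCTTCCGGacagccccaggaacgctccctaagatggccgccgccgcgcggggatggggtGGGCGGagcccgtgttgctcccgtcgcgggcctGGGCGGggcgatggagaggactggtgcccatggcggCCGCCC
Cited2, chr10:17723028-17723257, plus strand: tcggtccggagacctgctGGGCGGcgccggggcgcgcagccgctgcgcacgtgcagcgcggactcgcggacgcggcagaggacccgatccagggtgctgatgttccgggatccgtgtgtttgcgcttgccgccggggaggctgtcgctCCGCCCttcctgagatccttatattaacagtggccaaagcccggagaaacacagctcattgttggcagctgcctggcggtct
Recql5, chr11:115933463-115933692, minus strand: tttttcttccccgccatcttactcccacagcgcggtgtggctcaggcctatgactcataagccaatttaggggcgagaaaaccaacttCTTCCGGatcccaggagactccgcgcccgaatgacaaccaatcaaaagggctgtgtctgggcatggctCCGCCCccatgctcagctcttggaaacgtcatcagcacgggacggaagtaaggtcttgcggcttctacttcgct
Spring1, chr5:118245027-118245256, plus strand: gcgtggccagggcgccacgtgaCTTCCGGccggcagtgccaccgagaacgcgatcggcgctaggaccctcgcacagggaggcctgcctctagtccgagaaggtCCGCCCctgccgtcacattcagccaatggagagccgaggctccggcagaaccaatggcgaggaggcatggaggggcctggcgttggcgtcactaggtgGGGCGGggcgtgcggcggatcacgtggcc
Gadd45g, chr13:51846475-51846704, plus strand: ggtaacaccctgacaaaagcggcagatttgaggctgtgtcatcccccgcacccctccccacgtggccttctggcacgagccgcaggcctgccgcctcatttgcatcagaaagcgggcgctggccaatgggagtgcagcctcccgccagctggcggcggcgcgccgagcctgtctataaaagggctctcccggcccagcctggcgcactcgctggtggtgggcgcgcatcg
Rhob, chr12:8499980-8500209, minus strand: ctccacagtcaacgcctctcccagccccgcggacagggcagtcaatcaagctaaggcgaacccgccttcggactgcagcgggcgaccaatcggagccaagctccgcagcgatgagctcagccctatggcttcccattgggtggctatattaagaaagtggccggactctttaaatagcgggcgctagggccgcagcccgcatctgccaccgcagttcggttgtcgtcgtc

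At Pkm, which encodes the glycolytic enzyme pyruvate kinase, the Qki-5 centre lay at -146 bp from the start with a height of 23.2, and the Pol II centre at 31 bp with a height of 25.7. At Cited2, a transcriptional coregulator, the centres lay at -48 and 20, with heights of 22.7 for Qki-5 and 38.6 for Pol II. Cox20, an assembly factor of cytochrome c oxidase, had both centres upstream, at -196 with a height of 26.0 for Qki-5 and at -177 with a height of 22.1 for Pol II. Recql5, a DNA helicase, and Spring1, a regulator of sterol sensing, had Qki-5 centres at -56 and -50 with heights of 40.4 and 35.4 and no Pol II peak. Gadd45g, a stress-response gene, and Rhob, a small GTPase, had Pol II centres at 32 and 16 with heights of 82.8 and 54.7. They had no Qki-5 peak in the differentiated cells, while the Qki-5 list of isolated cells had peaks of 7.79 and 13.3 there. The printed stretches of Gadd45g and Rhob held neither capitalised string.

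Most Qki-5 peaks had no Pol II, while most Pol II peaks had Qki-5. Pol II was paired to 32.5% of Qki-5 peaks (95% exact Clopper-Pearson interval 31.9 to 33.0), and Qki-5 was paired to 73.8% of Pol II peaks (73.1 to 74.6). The lists differ in length, so each share is of its own list. Paired centres lay a median of 71 bp apart (quartiles 32 and 121), and 37.1% lay within 50 bp. Just inside the pairing limit, from 190 to 199 bp, 235 Qki-5 peaks had a median height of 15.5 beside Pol II peaks of 10.4. Just outside it, from 200 to 209 bp, 221 Qki-5 peaks had a median height of 14.9 beside Pol II peaks of 9.65.

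Unpaired peaks of the 2 lists were placed very differently. An unpaired Qki-5 peak lay a median of 28378.5 bp from the nearest Pol II centre, and 15.6% (15.1 to 16.1) had one within 1000 bp. An unpaired Pol II peak lay a median of 338 bp from the nearest Qki-5 centre, and 77.7% (76.3 to 79.1) had one within 1000 bp. Counted at 1000 bp, 43.0% of Qki-5 peaks (42.4 to 43.6) had Pol II and 94.2% of Pol II peaks (93.7 to 94.6) had Qki-5. That leaves 17199 Qki-5 peaks and 775 Pol II peaks apart from any peak of the other list. The PPARb list, and the HA list for the tagged receptor, gave shares near these: Pol II was at 36.5% of PPARb peaks and 33.3% of HA peaks, and 72.6% of Pol II peaks had PPARb and 75.3% had HA.

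Qki-5 peaks with Pol II were mostly at gene starts, and those without it mostly elsewhere. A peak counted as at a start when its centre lay within 1000 bp of a start of a protein-coding gene. That held for 57.7% (56.7 to 58.7) of Qki-5 peaks with Pol II and for 24.8% (24.2 to 25.4) of those without, and among the 17199 Qki-5 peaks with no Pol II within 1000 bp it held for 15.7% (15.1 to 16.2). More than 10000 bp from any start lay 32.6% of Qki-5 peaks with Pol II and 59.5% of those without. Pol II peaks ran the other way: 57.6% (56.7 to 58.6) of those with Qki-5 and 71.3% (69.7 to 72.8) of those without were at a start. The 775 Pol II peaks with no Qki-5 within 1000 bp were at a start in 44.9% (41.4 to 48.5) of cases, and the 2698 with Qki-5 between those distances in 78.8%.

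Around the start the median Pol II centre lay further downstream than the median Qki-5 centre, with wide overlap. At starts with no opposite start within 1000 bp, where a direction can be given, Qki-5 centres with Pol II lay at a median of -14 bp (quartiles -73 and 55) and those without at -45 bp (-153 and 93). Pol II centres with Qki-5 lay at 58.5 bp (-33 and 108) and those without at 90.5 bp (-19 and 176). With no partner within 1000 bp, the medians were -26 bp for Qki-5 and 61 bp for Pol II, nearer the paired ones. With a partner beyond 199 bp but within 1000 bp they were -77.5 and 95 bp. The pairing limit itself keeps such peaks apart, so the spread of the unpaired sets depends on it. Downstream of the start lay 41.2% (40.1 to 42.4) of all Qki-5 centres and 71.4% (70.2 to 72.6) of all Pol II centres. Within the 3796 paired sites at such starts, the Pol II centre was the one further downstream at 66.8% (65.2 to 68.3), with a median offset of 48 bp from the Qki-5 centre. Among 1090 further starts whose centres were more than 199 but at most 1000 bp apart, Pol II was further downstream at 72.1% (69.3 to 74.8), with a median offset of 229 bp. Measured the same way over both kinds of start, Pol II was downstream of Qki-5 at 67.9%, of PPARb at 66.0% and of HA at 58.2%, so the order is shared with the PPARb lists.

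**Figure D1:**
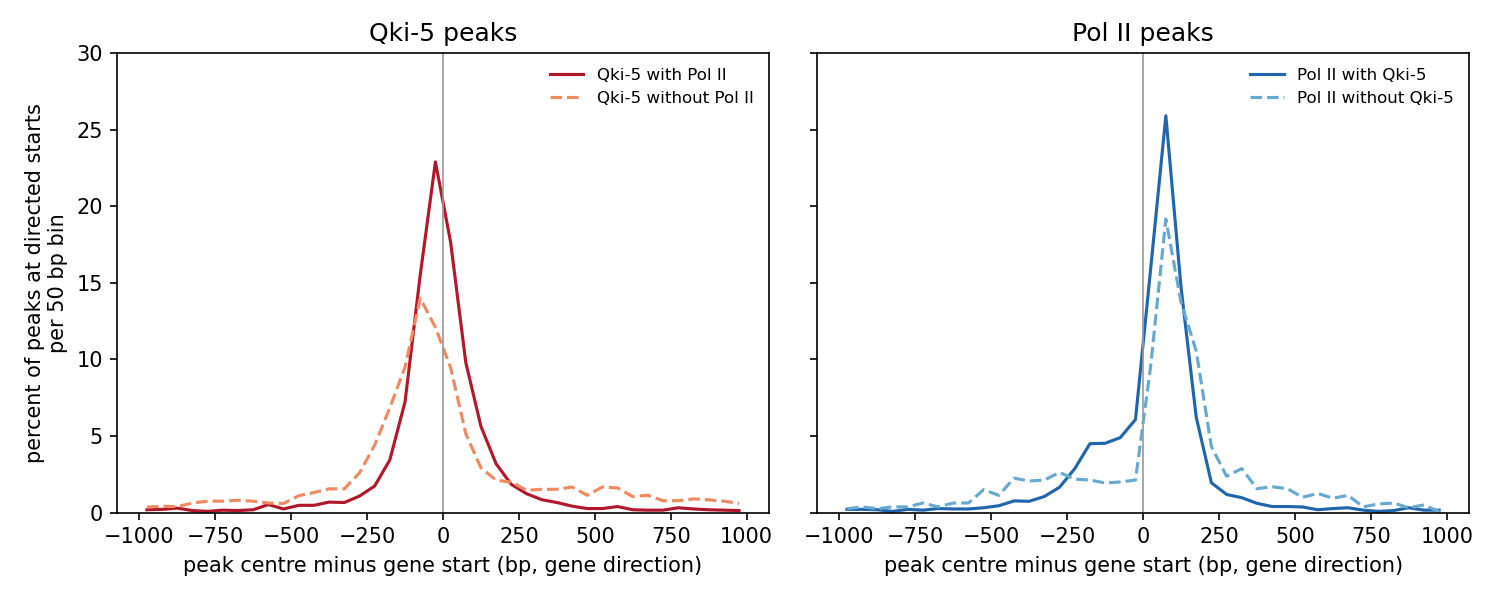
Share of peak centres in 50 bp bins by distance from a directed gene start, with Qki-5 peaks on the left (with Pol II solid, without dashed) and Pol II peaks on the right (with Qki-5 solid, without dashed). The fullest bin of Qki-5 with Pol II is from -50 to 0 bp with 22.9% of centres, and that of Pol II with Qki-5 is from 50 to 100 bp with 25.9%.

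Qki-5 peaks with Pol II were taller than those without, with a median of 14.4 (quartiles 11.6 and 18.3) against 9.4 (7.19 and 12.7). A height does not tell strong binding in a few cells from weak binding in many. At starts the medians were 14.9 with Pol II and 12.2 without, and away from starts 14.4 and 8.85. Against the surrounding 10000 bp, the authors' local fold had medians of 9.60 with Pol II and 7.62 without. Among the 5000 tallest peaks of each list the difference in height between Qki-5 peaks with and without Pol II was 0.6, about 1 tag. That setting drops all shorter Qki-5 peaks, and counts those beside a shorter Pol II peak as without it, so a smaller difference is built in. Pol II peaks differed little: their medians were 8.84 (6.83 and 11.7) with Qki-5 and 9.24 (6.83 and 12.5) without, which is 1 tag. At starts both medians were 10.4, and away from starts they were 7.23 with Qki-5 and 6.83 without. The sign of this Pol II difference, -0.4, turned to 0.4 away from starts and to 2.01 when partners up to 1000 bp away counted.

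The share of Qki-5 peaks with Pol II climbed with Qki-5 height. It was 3.93% (3.33 to 4.61) in the lowest of 10 groups of height, 27.7% (26.3 to 29.1) in group 5 and 63.5% (61.6 to 65.3) in the highest. In the 3 highest groups, from 14.4 upward, the share at starts stayed between 61.8% and 63.7%, while away from starts it went on from 45.9% to 66.2%. Short peaks hold few tags in either list, and a weak partner that was not called could not be seen. The share of Pol II peaks with Qki-5 had no such climb. It was 71.0% (69.0 to 73.0) in the lowest group, 77.8% (75.6 to 79.8) in the third and 65.4% (62.7 to 68.0) in the highest, where 90.2% of peaks were at a start. With partners up to 1000 bp away it was 85.6% in the lowest Pol II group and 93.9% in the highest.

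**Figure D2:**
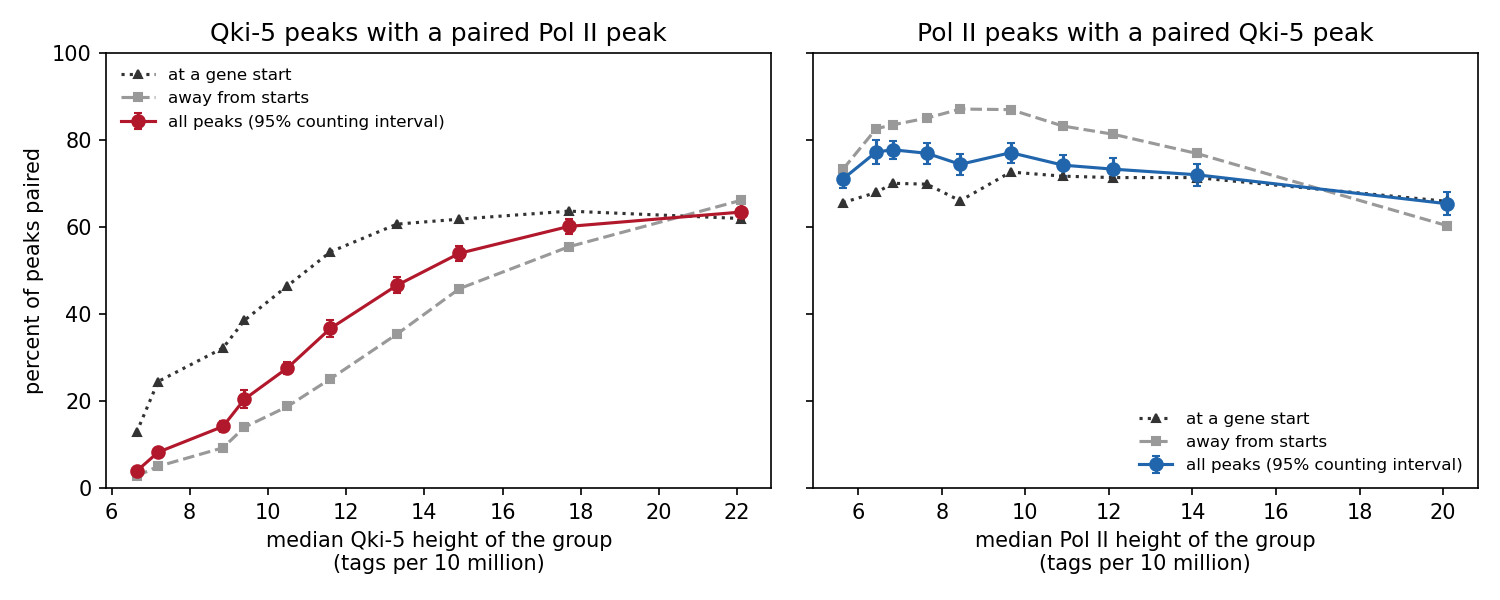
Percent of Qki-5 peaks paired with Pol II (left) and of Pol II peaks paired with Qki-5 (right) in 10 groups of peak height, plotted at the median height of each group; bars are 95% Clopper-Pearson intervals, triangles are peaks at gene starts and squares those away from them. The Qki-5 curve goes from 3.93% to 63.5%, and the Pol II curve stays between 65.4% and 77.8%.

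At paired sites the 2 heights ranked together weakly. The Spearman rho over 9794 mutually nearest pairs was 0.365, and it was 0.247 over the 5650 at starts and 0.514 over the 4144 away from them. All these sites share 1 input library, and rho is given as a description. Over 5 groups of rising Pol II height the median Qki-5 height was 11.6, 13.8, 15.5, 16.6 and 16.0, with Pol II from 12.9 to 102.9 in the highest. Among the 5000 tallest peaks of each list rho was -0.02, over pairs tall in both lists and so of a narrower range. The Qki-5 height was the larger number at 86.5% of sites, with a median log2 ratio of Qki-5 to Pol II of 0.70 (0.52 at starts and 0.89 away from them). That ratio depends on how well each antibody worked and says nothing of how many molecules were present.

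**Figure D3:**
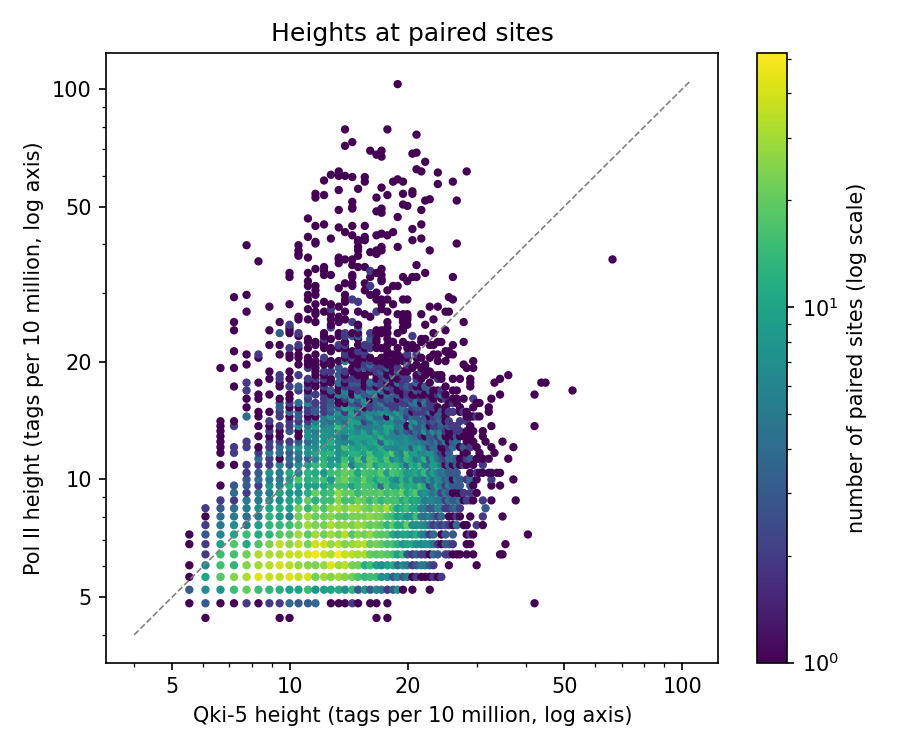
Qki-5 height against Pol II height at the 9794 paired sites, in tags per 10000000 on log axes, with colour for the number of sites at each pair of values and a dashed line where both are equal. The tallest Pol II peaks, up to 102.9, sit at middling Qki-5 heights, and rho over all points is 0.365.

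The paired start sites that ranked highest in both lists at once were led by Rps20, P4ha1 and Errfi1. Rps20, a protein of the small ribosomal subunit, had 26.6 (95% exact Poisson interval 19.6 to 35.2) for Qki-5 at chr4:3835575-3835775 and 40.2 (32.7 to 48.9) for Pol II at chr4:3835455-3835655. P4ha1, an enzyme of collagen hydroxylation, had Qki-5 of 26.6 centred at -62 and Pol II of 51.8 (43.3 to 61.6) centred at 132. Errfi1, a feedback inhibitor of EGF receptor signalling, had Qki-5 of 26.0 and Pol II of 57.9 (48.8 to 68.1). Of the other 7, the glycolytic gene Gapdh had Qki-5 of 23.8 (17.2 to 32.0) and Pol II of 57.1 (48.1 to 67.3), and the GTPase gene Rhoa had Qki-5 of 27.7 and Pol II of 25.3. Esyt2, Spg11, Mknk2, Zfp143 and H4c14 had Qki-5 heights from 24.9 to 26.0 and Pol II heights from 26.9 to 33.0. H4c14 encodes histone H4, which has near-identical copies, so its tags are uncertain. HA peaks were present at all 10 sites, and PPARb peaks were absent at Errfi1 and Zfp143. Over all Qki-5 start peaks with Pol II, HA was at 86.6% and PPARb at 85.1%, so these counts do not set the 10 sites apart.

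Polr2a, which encodes the largest subunit of Pol II itself, carried the tallest Pol II peak of the list. It reached 102.9 (90.7 to 116) at chr11:69758452-69758652, centred 81 bp downstream of the start, beside a Qki-5 peak of 18.8 (13.0 to 26.3) centred 72 bp upstream. Malat1, a nuclear long non-coding RNA, had Qki-5 of 21.0 and Pol II of 76.4, as a pair at an end of the gene. Neat1, its neighbour and the scaffold RNA of paraspeckles, had Pol II of 42.2 at an end and no Qki-5 peak within 1000 bp of its span. Actb, which encodes beta-actin, has no listed start in the promoter table and no peak at either end. Inside its span lay a Pol II peak of 66.3 and a Qki-5 peak of 19.4.

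Qki-5 peaks with no Pol II within 1000 bp included some of the tallest of their list. Riok2, a kinase of small-subunit ribosome maturation, had a Qki-5 peak of 42.0 (33.1 to 52.6), which shares rank 9 with other peaks of that height, at chr17:17374301-17374501, centred 69 bp downstream of the start, with PPARb of 16.5 there. The site between Sap30bp and Recql5, whose promoter is printed above, had 40.4 (31.7 to 50.8) with PPARb of 24.5 and HA of 21.4. Cic, a transcriptional repressor, had 36.5 (28.2 to 46.4) at 579 bp downstream of the start, where the non-coding gene Gm45974 also lies, and no peak of PPARb or HA there; other peaks gave its start both proteins. Rnft2 (the site also at Spring1), Prdm15, Cipc, N4bp2l2, Cdca7 and Cenpl, the last a kinetochore subunit, had heights from 32.6 to 35.4 near their starts. Of the 10 sites, the site inside Pepd, a dipeptidase gene, was the single one far from a start, with 32.6 (24.8 to 42.1). An HA peak of 32.5 lay at that site.

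Pol II peaks with no Qki-5 within 1000 bp were led by Gadd45g, Brd2 and Mt1. Gadd45g had 82.8 (71.9 to 94.9) at chr13:51846607-51846807, the second tallest Pol II peak of the list. Brd2, which encodes a bromodomain protein, had 68.7 (58.8 to 79.8) centred 617 bp downstream of its start, and Mt1, a metallothionein, had 61.9 (52.5 to 72.5) at 199 bp downstream. Sox9, a transcription factor of glial progenitors, had 57.9 (48.8 to 68.1), and Rhob, Zfp36l1, Fth1 and Arid5a had between 47.4 and 54.7. The last 2 of the 10 lay away from coding starts. Those nearest Tex14, at 46.6 (38.5 to 55.9), and Kif2c, at 45.4 (37.4 to 54.6), overlapped the small nuclear RNA genes Gm22068 and Gm25099, which belong to families of near-identical copies. Over all Pol II peaks away from coding starts, a small nuclear RNA gene lay within 1000 bp of 2.34% (1.13 to 4.26) of the 427 with no Qki-5 within 1000 bp and of 0.289% (0.150 to 0.505) of the 4148 with paired Qki-5.

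Counted by gene, both proteins were at the start of 7992 of 21887 protein-coding genes, 36.5% (35.9 to 37.2), whether or not their peaks were paired. Qki-5 alone was at 2584 genes, 11.8%, Pol II alone at 350 genes, 1.60%, and neither at 10961. Of the 8342 genes with Pol II at the start 95.8% (95.4 to 96.2) also had Qki-5, and of the 10576 with Qki-5 there 75.6% (74.7 to 76.4) also had Pol II. Qki-5 had a median height of 15.5 at genes with both and 11.1 at genes with Qki-5 alone. Pol II had a median of 10.4 at genes with both and 9.65 at genes with Pol II alone.

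Genes of protein synthesis and RNA processing nearly all had both. All 26 cytosolic ribosomal protein genes did, against 36.5% of all genes, 18 of them as paired peaks, with medians of 19.4 for Qki-5 and 17.1 for Pol II, against 14.9 and 10.4 over all genes with a peak. Rpl32, of the large subunit, had Qki-5 of 44.8 (35.6 to 55.7), the seventh tallest of its list, beside Pol II of 17.7. Rpl23 had Qki-5 of 29.3 and Pol II of 19.3. Ribosomal protein genes have near-identical pseudogenes, so their tags are uncertain. Splicing factor genes had both at 29 of 30 (96.7%), with Srsf1, an SR protein, at 19.9 for Qki-5 and 15.7 for Pol II, and Hnrnpm, an hnRNP protein, at 21.0 and 15.3.

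Genes of the transcription machinery had Qki-5 at every start on both lists, mostly with Pol II. Subunits of Pol II and general initiation factors had both at 22 of 26 genes (84.6%, against 36.5% of all genes) and Qki-5 alone at the other 4 (15.4%, near the 11.8% of all genes). The TATA-binding protein gene Tbp had Qki-5 of 22.7 (16.3 to 30.8) and no Pol II peak, and Ercc2, a helicase of TFIIH, had Qki-5 of 18.3 and no Pol II peak. Factors of pausing, elongation and termination had both at 23 of 27 (85.2%) and Qki-5 alone at 4 (14.8%), again near that share. Cdk13, a kinase of the Pol II tail, had Qki-5 of 27.7 and Pol II of 22.5, and Xrn2, the exonuclease of termination, had 22.7 and 17.7. Larp7, which binds the 7SK RNA that restrains elongation, had Qki-5 of 28.2 (21.0 to 37.1) and no Pol II peak.

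Over all genes the shares were 36.5% with both, 11.8% with Qki-5 alone and 1.60% with Pol II alone, and metabolic lists are given beside these. Citric acid cycle genes had both at 16 of 18 (88.9%), among them the dehydrogenase gene Mdh2 with Qki-5 of 21.6 and Pol II of 17.3 and Sdha, of succinate dehydrogenase, with 24.3 and 14.9, and Qki-5 alone at 2 (11.1%, near the share over all genes), Idh3a (13.8) among them. Fatty acid oxidation genes had both at 20 of 23 (87.0%). Eci1, an enoyl-CoA isomerase, had Qki-5 of 15.5 and Pol II of 20.9, the carnitine carrier gene Slc25a20 had Qki-5 of 10.5 alone, and Decr1 Pol II of 5.63 alone. Cholesterol synthesis genes had both at 15 of 22 (68.2%) and Qki-5 alone at 5 (22.7%), such as Fdps (19.4) and Lss (13.8), while Msmo1 had Pol II alone. Known PPAR targets had both at 9 of 20 (45.0%, 23.1 to 68.5), near the share over all genes, and neither at 8. Acot1 and Acot2 are near-identical copies, and their heights, 13.3 and 13.8 for Qki-5 and 16.5 and 14.9 for Pol II, are uncertain.

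Immediate-early genes, which respond within minutes to growth signals and stress, had the tallest Pol II of the 18 lists. Their median Pol II height was 26.5 over the 20 genes with a peak, against 10.4 over all genes, while their median Qki-5 height was 13.0 against 14.9. Both were present at 17 of 24 genes (70.8%, against 36.5% of all genes), Qki-5 alone at 3 (12.5%, against 11.8%) and Pol II alone at 3 (12.5%, against 1.60%). Fos, a subunit of AP-1, had Qki-5 of 10.5 (6.33 to 16.4) centred at -104 and Pol II of 39.8 (32.3 to 48.4) centred at 33. Jun had Qki-5 of 17.1 at -336 and Pol II of 22.1 at 87, too far apart to be paired. Ier2, Klf6 and Zfp36 had Qki-5 of 18.8, 16.6 and 19.9 and Pol II of 39.4, 38.6 and 32.2, in that order. Myc had Pol II of 29.3 (23.0 to 36.9) and Egr1 of 28.1 (21.9 to 35.5) with no Qki-5 peak at the start. The Qki-5 list of isolated cells had a peak of 8.24 at the Egr1 site and none at that of Myc. Heat shock and chaperone genes had both at 18 of 20 (90.0%), among them Dnaja1 with Qki-5 of 16.6 and Pol II of 48.6, and Hspa8 with 26.0 and 43.8 as an unpaired neighbour pair.

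Lineage and cell type lists had both at 0.0% to 35.7% of their genes, beside 36.5% of all genes. Of 20 oligodendrocyte markers, Cnp, a myelin enzyme gene, had Qki-5 of 11.1 and Pol II of 21.7, Olig1, a lineage transcription factor, had Pol II of 22.5 alone, and Nkx2-2 and Ugt8a had Qki-5 of 9.4 and 8.85 alone. Mbp, of the myelin sheath, lies on chromosome 18, for which the promoter table lists no starts, and had no peak at either end. Any start inside its span was therefore not read as one. A paired site of 14.4 for Qki-5 and 6.83 for Pol II lay inside the gene. Precursor and stem cell markers had both at 5 of 14 (35.7%). They had Pol II alone at 3 (21.4%, 4.66 to 50.8, against 1.60% of all genes), with Sox2 at 19.3 (14.2 to 25.6) and Hes1 at 16.5. Fabp7, a lipid-binding protein of radial glia, had Qki-5 of 14.9 and Pol II of 16.1. The other cell types that the cultures could hold gave both at 3 of 10 astrocyte, 3 of 11 neuron, 1 of 10 microglia and 0 of 10 endothelial and mural markers, and genes of other tissues gave 2 of 16. Atp1b2, on the astrocyte list, had a Pol II peak of 78.8 (68.1 to 90.6), which shares rank 3 with another of that height, beside Qki-5 of 13.8.

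The genes of the proteins studied were read separately. Qk, which encodes Quaking, had Pol II of 17.3 (12.5 to 23.3) centred 137 bp downstream of its start and no Qki-5 peak there, and 1 Qki-5 peak of 6.64 inside the gene. Ppard, the gene of PPARb, had Qki-5 of 10.5 centred at -139 and Pol II of 11.7 centred at 111. Of the 5 STAR family genes, 2 had both (40.0%, 5.27 to 85.3, near the 36.5% of all genes), and Qk had Pol II alone. Khdrbs2 and Khdrbs1 counted as Qki-5 alone. The Khdrbs1 peak, of 6.64, lay at an end of the gene where no direction was given, so it may not mark a start.

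**Figure D4:**
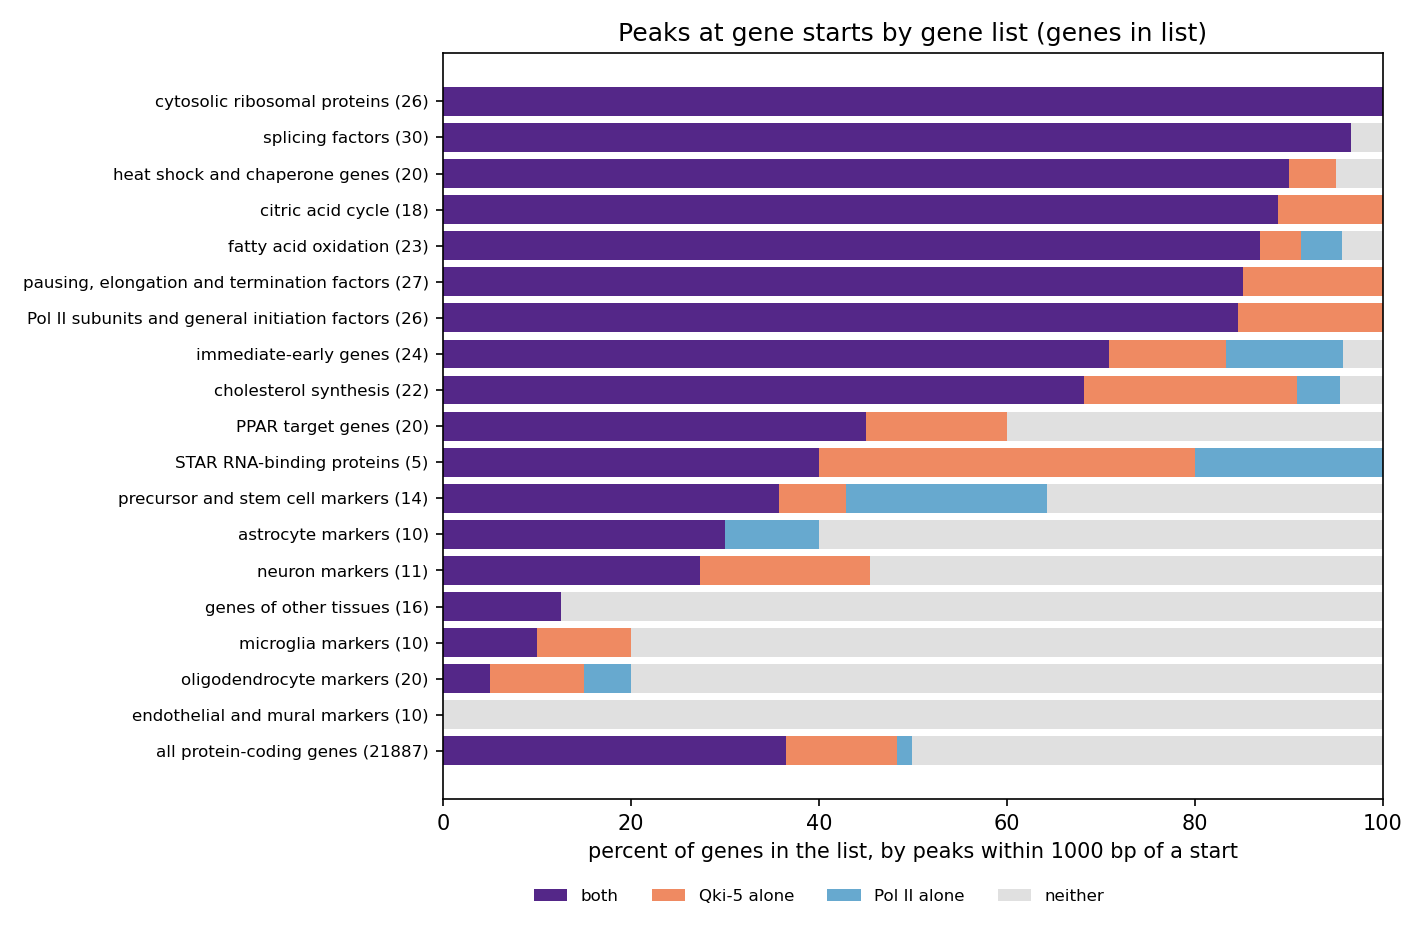
Percent of the genes in each of 18 lists, and of all 21887 protein-coding genes at the bottom, with both peaks, Qki-5 alone, Pol II alone or neither within 1000 bp of a start; the number of genes stands beside each name. Ribosomal protein genes have both at 26 of 26, oligodendrocyte markers at 1 of 20, and all genes at 36.5%.

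The promoter letters differed among these classes. RefSeq gave 21263 starts with 300 bases each, from 250 before the start to 50 from it on, and each start was placed by the peaks within 1000 bp of it: 7671 had both, 2438 Qki-5 alone, 348 Pol II alone and 10806 neither. The median number of CG dinucleotides was 24 with both, 19 with Qki-5 alone, 20 with Pol II alone and 4 with neither. GGGCGG, the GC box, was in 72.1% with both, 61.0% with Qki-5 alone, 66.7% with Pol II alone and 23.8% with neither, against 46.2% of all. CCGGAAG, the core bound by ETS factors, was in 21.6% (20.7 to 22.5) with both, 16.7% (15.2 to 18.2) with Qki-5 alone, 10.6% (7.60 to 14.4) with Pol II alone and 3.32% (2.99 to 3.68) with neither, against 11.6% of all. Classing by centres inside the 300 bases themselves put 2063 starts in both, 4488 in Qki-5 alone and 672 in Pol II alone. These bases end 50 after the start, while Pol II centres were commonest from 50 to 100 bp after it. Starts with Pol II further on therefore counted as Qki-5 alone or neither. CCGGAAG was then in 30.6% (28.6 to 32.6) with both and 22.6% (21.4 to 23.9) with Qki-5 alone. With Pol II alone it was in 15.2% (12.5 to 18.1). The median CG number was 26, 23 and 26 in these classes, and GGGCGG was in 74.1%, 71.6% and 73.4%. Both strands were searched, and such letters are commoner in promoters rich in CG.

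How TATAAA, the letters of the TATA box, was spread depended on how starts were classed. By peaks within 1000 bp it was in 5.54% (5.04 to 6.08) of starts with both, 5.87% (4.97 to 6.87) with Qki-5 alone, 10.9% (7.84 to 14.7) with Pol II alone and 19.2% (18.4 to 19.9) with neither, against 12.6% of all. By centres inside the 300 bases themselves it was in 5.28% (4.36 to 6.34) with both and 4.84% (4.23 to 5.50) with Qki-5 alone. With Pol II alone it was in 6.70% (4.93 to 8.86), and these intervals overlap. The limit given above for these classes holds here too. AGGTCA, the element of nuclear receptors, was in 10.1% (9.41 to 10.8) with both, 11.7% (10.4 to 13.0) with Qki-5 alone, 12.4% (9.09 to 16.3) with Pol II alone and 18.8% with neither, against 14.7% of all. ACTAAC, the DNA form of the element that Quaking binds in RNA, was in 4.33% (3.88 to 4.80) with both and 5.33% (4.47 to 6.30) with Qki-5 alone, and in 5.46% of all starts, while ACTAAT was in 2.88%, 3.77% and 5.23%. An opposite start lay within 1000 bp of 28.4% (27.4 to 29.4) of starts with both, 20.5% (18.9 to 22.2) with Qki-5 alone, 15.5% (11.9 to 19.8) with Pol II alone and 5.36% (4.94 to 5.80) with neither. In all, 15 strings were searched; they overlap in part, and a match in a window is no binding site.

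PPARb was found more often at Qki-5 peaks with Pol II than at those without, both at starts and away from them. At starts it was at 85.1% (84.1 to 86.0) with Pol II and 60.1% (58.8 to 61.5) without, and away from starts at 89.2% (88.3 to 90.2) and 52.9% (52.1 to 53.7). HA peaks gave 86.6% and 64.0% at starts, and 88.9% and 54.2% away from them. Among Pol II peaks, PPARb was at 84.8% (84.1 to 85.5) with Qki-5 and 38.4% (36.8 to 40.0) without, and HA at 85.5% and 46.7%. In the lowest of 5 groups of Qki-5 height PPARb was at 61.7% with Pol II and 31.6% without, and in the highest at 92.8% and 83.3%. Among the 5000 tallest Qki-5 and Pol II peaks the difference in PPARb share was 2.12 percentage points, against 32.1 in the full lists. That setting cuts the Pol II list too, so Qki-5 peaks beside a shorter Pol II peak counted as without it.

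Qki-5 sites of isolated cells were read at the same places. They met 51.7% (50.4 to 53.0) of Qki-5 start peaks with Pol II and 34.0% (32.7 to 35.3) of those without, and away from starts 12.2% (11.3 to 13.3) and 4.40% (4.08 to 4.74). In the highest of the 5 groups of Qki-5 height the shares were 49.5% with Pol II and 47.4% without, and in group 2 they were 15.7% and 4.21%. Isolated-cell Qki-5 was also at 32.3% of Pol II peaks with Qki-5 and 17.0% (15.8 to 18.3) of those without. The isolated-cell list was called against another input and held 8375 peaks, so a missing peak there may lie below its threshold.

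**Figure D5:**
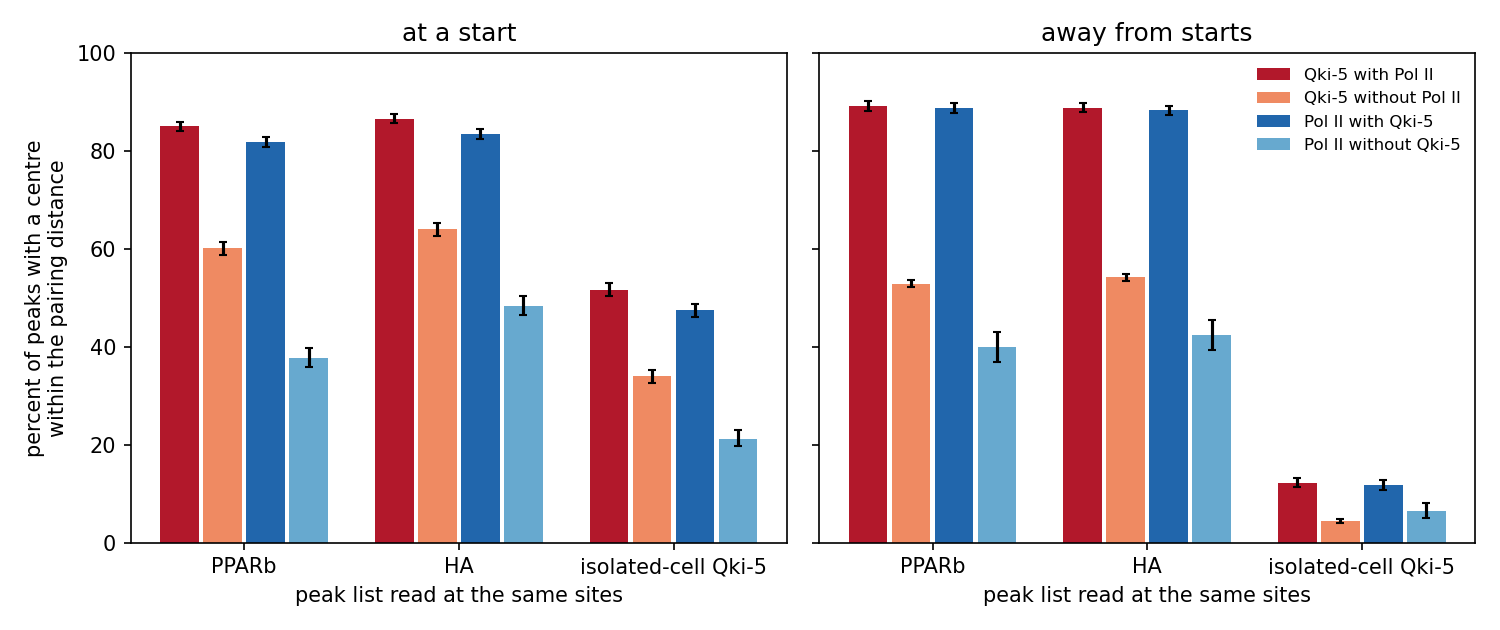
Percent of Qki-5 peaks with and without Pol II (reds) and of Pol II peaks with and without Qki-5 (blues) that had a PPARb, HA or isolated-cell Qki-5 centre within 199 bp, at gene starts (left) and away from them (right), with 95% Clopper-Pearson intervals. PPARb was at 89.2% of Qki-5 peaks with Pol II away from starts and at 52.9% of those without.

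Away from starts, Qki-5 peaks with and without Pol II lay inside protein-coding genes at shares whose intervals overlap, 54.2% (52.7 to 55.8) of 4144 and 53.5% (52.7 to 54.2) of 15329. A long non-coding RNA gene end lay within 1000 bp of 7.53% (6.74 to 8.37) of the Qki-5 peaks with Pol II and 5.47% (5.11 to 5.84) of those without. Across the autosomes the share of Qki-5 peaks with Pol II ran from 28.2% on chromosome 12 to 36.8% on chromosome 5, and that of Pol II peaks with Qki-5 from 69.3% on chromosome 17 to 80.4% on chromosome 16. On X the shares were 24.4% (20.7 to 28.3) of 513 Qki-5 peaks and 55.8% (49.0 to 62.4) of 224 Pol II peaks. Heights on X were lower too, with medians of 8.30 for Qki-5 and 6.83 for Pol II, and its median input was 1.0 tag for both lists against 1.9 and 2.0 on the autosomes. Whether the lower tag numbers on X account for its lower shares was not tested.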

How the data were processed

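The peak lists were deposited by the authors, 1 per antibody library. The submitters' processing notes name HOMER 4.10.1, Bowtie 1.2.2 and SAMtools 1.8, and, for the reads, Trim Galore 0.4.4 and bcl2fastq 2.19.1.403; the build was mm10. Per the file headers, HOMER findPeaks in its factor setting held false discoveries to 0.001, asked for 4-fold more tags than input (Poisson p 0.0001), and for 4-fold more than the 10000 bp around the peak. Per the file headers, all differentiated-cell lists used 1 input, and duplicate tags had been removed. The Qki-5 tag directory has merge in its name, a word that the sources used here do not explain. The local filter removes peaks that sit in broad signal, and dropped 3520 of 38312 putative Qki-5 peaks and 1786 of 19964 putative Pol II peaks. The input filter dropped 4613 of those Qki-5 peaks and 4908 of those Pol II peaks, a larger part of the Pol II list. How this affects the shares of paired peaks was not tested.

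Height stands for the normalized tag count, the signal that the authors scaled to a library of 10000000 tags, per the file headers. Fold over input and over the local region are ratios deposited by the authors, as are the total tags, a raw count in the Qki-5 list and a scaled signal in the Pol II list, per the file headers. Peak heights are the authors' own values, and ranks by height were taken within 1 list at a time. The focus ratio, a fraction, and the peak score in the lists deposited by the authors were not used.

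Peaks on chromosomes 1 to 19, X and Y were paired by centre distance, which was tested on simulated lists. Gene starts came from RefSeq (GRCm38.p6): 21263 starts listed for 17492 of 21887 protein-coding genes, and both gene ends for the other 4395, whose direction is not given and for which an end may be the 3′ end. No start was listed for chromosome 18, so gene ends served for all its genes. Directions were read at the 17954 starts (84.4%) with no opposite start within 1000 bp. Intervals are 95% exact Clopper-Pearson for shares and exact Poisson for heights. With 1 library per antibody no test was made, as peaks and genes are not replicates. Python 3.11.15, numpy 2.4.6, pandas 2.3.3, SciPy 1.17.1 and matplotlib 3.10.9 were used.

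The members and the 18 gene lists, with 332 entries that all matched, were chosen with earlier results of these data known. Named genes are the 10 paired sites at starts highest in both lists by the smaller percentile rank, the 10 tallest peaks of each list with no partner within 1000 bp (4 predicted genes were passed over among Qki-5 sites), up to 3 paired and 2 + 2 unpaired members per list, and 14 genes in any case; a few of the genes so named are not reported here. The 1000 bp classes of unpaired peaks, the directed positions, the heights by group, the letter strings, the printed promoters and the non-coding genes under single sites were added once results were in view. The alternatives were a stricter fold, the tallest peaks, other pairing distances, peaks away from starts, fold in place of height, and other start windows.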

Additional observations from a re-analysis of the deposited data

Results flagged for a closer look

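The tallest Qki-5 peak of the whole file, with a height of 159.9 tags per 10000000, lay on an unplaced sequence outside the compared chromosomes. Its fold over input was 4.27, close to the 4-fold that the authors' caller required, and no Pol II peak was called on that sequence. It was singled out because it is signal in data that the comparison leaves out. The other 3 Qki-5 peaks on unplaced or unlocalised sequence had heights from 8.30 to 22.7, and the 3 Pol II peaks there had heights from 5.63 to 11.3.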

How the results depend on the processing

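The 8 results were recomputed under 8 alternatives: 31 values moved with the sign kept, 7 stayed close and 3 turned sign. The share of Qki-5 peaks with Pol II, 32.5%, was 26.2% at 8-fold or more over input, 31.6% for the tallest 5000 of both lists, 21.3% with centres at most 99 bp apart, 43.0% at most 1000 bp apart and 21.2% over 1000 bp from any start. The share of Pol II peaks with Qki-5, 73.8%, was 64.4%, 31.6%, 48.4%, 94.2% and 80.3% under those settings, in that order. The difference in Qki-5 height, 5.0, was 3.8, 0.6, 4.44, 5.55 and 5.55, and by fold over input 4.9. The difference in Pol II height, -0.4, was -0.8 at 99 bp, turned to 2.01 at 1000 bp and to 0.4 away from starts, and was -0.76 by fold over input. The rank correlation, 0.365, was -0.021 among the 5000 tallest peaks, 0.51 away from starts and 0.43 by fold over input. The difference in start share, 32.9 percentage points, was 29.1 at 8-fold, 21.1 among the tallest, 29.4 with a window of 5000 bp and 30.2 with both ends of every gene in place of starts, a setting chosen after the data were seen. The difference in PPARb share, 32.1 points, was 27.6 at 8-fold, 2.12 among the tallest, 28.5 at 99 bp, 33.7 at 1000 bp and 36.3 away from starts. Genes with both at the start, 7992, numbered 4734 at 8-fold and 1930 among the tallest. The stricter settings leave fewer peaks to pair, and a peak whose partner was cut from its list counts there as unpaired. The causes of the other shifts were not tested. No paired analysis was possible because each antibody had 1 library, with no replicate numbers to pair or leave out. Depth limits the low end: the lowest called heights were 4.98 for Qki-5 and 4.42 for Pol II, and an absent peak is one not detectable at this depth.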
